A study of Brassica rapa with 8 samples.

Results

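Whole seedlings of Chinese cabbage (*Brassica rapa*) treated with IAA-Ala were compared with seedlings treated with IBA-Ala, on the RNA-seq read counts of all genes and of 42 auxin-related genes. In both compounds an auxin is bound to L-alanine. The auxin is indole-3-acetic acid (IAA) in IAA-Ala and indole-3-butyric acid (IBA), which has the longer side chain, in IBA-Ala. The comparison used 4 of the 8 libraries of the series, 2 biological replicates of each treatment. The seedlings (cultivar Cantonner Witkrop) were 1 day old when they were placed on agar with 10 µM of one conjugate under continuous light. The protocol and the paper give a treatment of 24 h, whereas the sample titles give 3 h, for both treatments alike. The untreated control (hormone-free agar, 2 replicates) was left out of the comparison, and its levels are given as background. The 42 genes are those that the study names with an identifier in its displays of auxin metabolism. They were chosen by the study for their similarity to *Arabidopsis* genes, and 12 of them because they had passed its tests against the control, to which the 4 libraries contributed.

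Free auxin in plants is set by synthesis, by conjugation to amino acids or sugars, by oxidation, and by the release of auxin from its conjugates. In *Arabidopsis*, GH3 enzymes join auxin to amino acids, amidohydrolases of the ILR1 and ILL family split such conjugates, and IBA is shortened to IAA by peroxisomal enzymes that include IBR1 and IBR3. Free IAA brings about the degradation of Aux/IAA repressors, after which early auxin genes, among them *GH3*, *SAUR* and *Aux/IAA* genes, are transcribed. The comparison of IAA-Ala with IBA-Ala therefore asks where the transcripts of these steps differ when seedlings are supplied with a conjugate of IAA or of IBA at the same dose.

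The IAA-Ala replicates held 19521990 and 19195937 counts on genes and the IBA-Ala replicates 18669504 and 18544936, and 34532 of 46250 genes were detected in these libraries. Fewer genes had a count after IAA-Ala (30119 and 31283) than after IBA-Ala (31724 and 32155). Of the uniquely aligned reads, 16.3% and 15.95% lay outside genes after IAA-Ala and 18.4% and 17.4% after IBA-Ala. The 10 genes with the most counts held 4.45% and 4.04% of the counts after IAA-Ala and 2.93% and 3.66% after IBA-Ala. The factors by which edgeR's TMM method corrects the depth for composition were 0.947 and 0.971 after IAA-Ala and 1.04 and 1.02 after IBA-Ala. These measures of the libraries did not overlap between the treatments, and their part in the differences below was not tested. Levels are given in CPM, the counts of a gene relative to the scaled depth of the library. Where a library had 0 counts of a gene, up to 3 counts remain possible from counting error alone, between 0.154 and 0.162 CPM before scaling. In whole seedlings, fewer cells of a type and less RNA per cell cannot be told apart.

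Of the 42 auxin-related genes, 33 had enough counts to be tested, and 2 passed the test at an adjusted p below 0.05. *YDK1* was higher after IAA-Ala and *UGT74E2* was higher after IBA-Ala. Against the control, the study reports *YDK1* among the genes changed after IAA-Ala, and *UGT74E2* as changed only after IBA-Ala. *UGT74E2* was thus called by the study through libraries in which it is higher here, so its direction is not independent of that choice. For *YDK1* the paper also describes a significant induction by the treatments in general. Its choice drew on these libraries as well, but whether it favored a direction towards IAA-Ala is not known. The test was edgeR's quasi-likelihood test on the 4 libraries, with Benjamini-Hochberg adjustment over all 26952 genes tested. These 2 genes are 6.06% of those tested in the list. Over all genes the same rule called 6.86%, so the share in the list was close to the background. The libraries of the treatments did not overlap for 14 of the 33 genes (42.4%), against 58% of all genes tested. The median absolute log2 difference was 0.50 in the list and 0.40 over all genes. The 9 genes not tested were *YUC8*, *YUC9*, *YUC10*, *YUC11*, a *YUC* gene without a number (BraA01g005540.3C), *GH3.8*, *GH3.12*, a *GH3* family gene (BraA08g026630.3C) and *UGT84B1*. Of these, *YUC10*, *YUC11*, *GH3.12* and *UGT84B1* had 0 counts in all 4 libraries, and the other 5 had at most 8 counts in a library.

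*YDK1* (BraA01g001510.3C), also called *GH3.2*, encodes an enzyme that conjugates IAA to amino acids in *Arabidopsis*. Its level was 135 and 104 CPM in the IAA-Ala replicates and 26.2 and 49.3 CPM in the IBA-Ala replicates. Both IAA-Ala libraries lay above both IBA-Ala libraries, and all 4 lay above the control, at 0.491 and 1.06 CPM. The level was 3.16-fold higher after IAA-Ala, with a log2 difference (IBA-Ala minus IAA-Ala) of −1.66, a standard error of 0.30 and an adjusted p of 0.0288. *YDK1* no longer passed when IAA-Ala replicate 1, IAA-Ala replicate 2 or IBA-Ala replicate 1 was left out (adjusted p of 0.129, 0.058 and 0.102), with no filter on low counts (adjusted p of 0.0525) or when all 8 libraries entered one fit (adjusted p of 0.137). *YDK1* passed in 7 of 9 alternatives with all 4 libraries, and its adjusted p lay between 1.83e-06 (DESeq2, the tool of the study) and 0.137. Its log2 difference stayed between −2.18 and −1.26 with each library left out.

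*UGT74E2* (BraA08g034260.3C) encodes a glucosyltransferase that accepts IBA as a substrate in *Arabidopsis*. Its level was 16.5 and 10.7 CPM after IAA-Ala and 39.4 and 27.3 CPM after IBA-Ala. Both IBA-Ala libraries lay above both IAA-Ala libraries, while the control had 110 and 122 counts, against 304 and 200 after IAA-Ala and 765 and 514 after IBA-Ala. The level was 2.46-fold higher after IBA-Ala, with a log2 difference of 1.30, a standard error of 0.27 and an adjusted p of 0.0403. Without IAA-Ala replicate 1, IAA-Ala replicate 2 or IBA-Ala replicate 1, the adjusted p was 0.116, 0.115 and 0.186, so that *UGT74E2* no longer passed. It did not pass either with no filter on low counts (adjusted p of 0.0647) or with all 8 libraries in one fit (0.0875). It passed in 7 of 9 alternatives with all 4 libraries, with an adjusted p of 0.000935 in DESeq2. Over these alternatives its adjusted p lay between 0.000873 and 0.0875. The lowest value came from the fit with the replicate number as a block, and the replicate numbers are not known to pair the samples. The log2 difference stayed between 1.02 and 1.63 with each library left out.

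**Figure D1:**
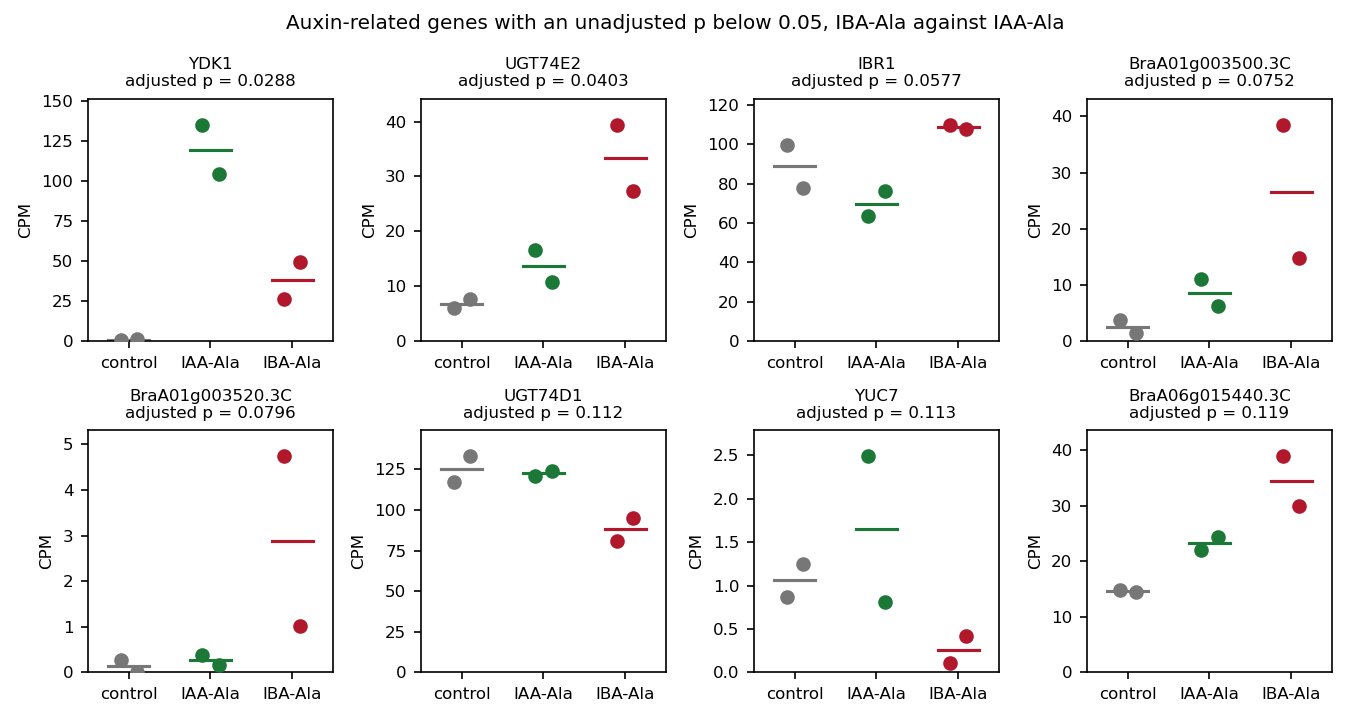
Level in CPM (linear axes from 0) of the 8 auxin-related genes with an unadjusted p below 0.05, in the 2 control, 2 IAA-Ala and 2 IBA-Ala libraries. Points are libraries and lines are means; *YDK1*, at 135 and 104 CPM after IAA-Ala, and *UGT74E2*, at 39.4 and 27.3 CPM after IBA-Ala, have adjusted p of 0.0288 and 0.0403, and the other 6 genes have adjusted p of 0.0577 or more.

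The list holds 5 further *GH3* genes of auxin conjugation, and 0 of them passed the test. *GH3.3* (BraA09g054360.3C), which like *YDK1* serves IAA conjugation in *Arabidopsis*, had 175 and 262 CPM after IAA-Ala and 103 and 178 CPM after IBA-Ala. These libraries overlapped narrowly and all lay above the control, at 11.2 and 6.39 CPM. The log2 difference of *GH3.3* was −0.63, with a 95% interval from −1.32 to 0.06 and an adjusted p of 0.216. *GH3.6* was at 14.6 and 30.5 CPM after IAA-Ala and at 29.4 and 32.6 CPM after IBA-Ala, where only IAA-Ala replicate 1 was low. *GH3.17*, whose product prefers glutamate in *Arabidopsis*, had 3.14 and 1.93 CPM after IAA-Ala and 4.49 and 3.45 CPM after IBA-Ala. Its libraries did not overlap, and its log2 difference of 0.65 had an interval from −0.26 to 1.56. *GH3.1* and *GH3.9* lay between 0.650 and 2.44 CPM in the 4 libraries, with intervals of the log2 difference from −1.42 to 0.90 and from −0.71 to 1.96.

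Among the other *GH3* genes, 3 of 6 were tested and 0 passed. *GH3.15* (BraA03g005710.3C), whose product prefers IBA in *Arabidopsis*, had 52.2 and 67.8 CPM after IAA-Ala and 69.3 and 100.0 CPM after IBA-Ala. The libraries did not overlap, although IAA-Ala replicate 2 and IBA-Ala replicate 1 were nearly level, and the control was at 135 and 99.5 CPM. Its log2 difference was 0.50, with an interval from −0.03 to 1.03 and an adjusted p of 0.205. *GH3.11*, the jasmonate-conjugating enzyme of *Arabidopsis*, had 39.1 and 43.0 CPM after IAA-Ala and 45.6 and 34.3 CPM after IBA-Ala. The IBA-Ala libraries lay on either side of the IAA-Ala libraries, and the log2 difference of −0.04 had a narrow interval, from −0.49 to 0.41. *GH3.18* had 1.46 and 1.40 CPM after IAA-Ala and 0.773 and 2.07 CPM after IBA-Ala, with a wide interval from −1.37 to 1.34.

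The *Aux/IAA* and *SAUR*-like genes are early response genes of auxin, and 0 of the 6 in the list passed the test. *SAUR* genes encode small proteins tied to cell expansion. All 4 *SAUR*-like genes had fitted differences towards IBA-Ala, and 3 of them had libraries without overlap and an unadjusted p below 0.05. Over all genes tested, both IBA-Ala libraries were the higher for 29.3%, and 27.2% had an unadjusted p below 0.05 in either direction. The *SAUR*-like genes, unlike all genes tested, were chosen because they had passed the study's tests against the control. The study does not name them among its genes after IAA-Ala, so that choice may favor a direction towards IBA-Ala. BraA01g003500.3C had 203 and 116 counts after IAA-Ala and 746 and 278 counts after IBA-Ala, with 67 and 23 counts in the control, where IBA-Ala replicate 1 was by far the highest. Its log2 difference was 1.63, with a standard error of 0.47, an unadjusted p of 0.00895 and an adjusted p of 0.0752. With DESeq2, the tool of the study, its adjusted p was 0.0022. Over the alternatives with all 4 libraries it lay between 0.000824, in the fit with the replicate number as a block, and 0.116. BraA01g003520.3C had 7 and 3 counts after IAA-Ala and 92 and 19 counts after IBA-Ala, and 5 and 0 counts in the control. The IAA-Ala libraries of BraA01g003520.3C were thus close to the control and both IBA-Ala libraries above them, with a log2 difference of 3.39, a standard error of 1.01 and an adjusted p of 0.0796. Without IBA-Ala replicate 1 the log2 differences of BraA01g003500.3C and BraA01g003520.3C fell to 0.79 and 1.89, with adjusted p of 0.375 and 0.451. Without IBA-Ala replicate 2 they were 2.16 and 4.11, with adjusted p of 0.028 and 0.0312, and neither gene passed when an IAA-Ala library was left out (adjusted p between 0.153 and 0.215).

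BraA06g015440.3C showed less spread, with 22.1 and 24.4 CPM after IAA-Ala and 38.9 and 29.9 CPM after IBA-Ala. Its log2 difference of 0.57 had an interval from 0.10 to 1.03 and an adjusted p of 0.119. The last *SAUR*-like gene, BraA07g029140.3C, had overlapping libraries, at 35.8 and 32.3 CPM after IAA-Ala and 43.6 and 33.6 CPM after IBA-Ala. Intervals are given per gene and are not adjusted for the number of genes, so an interval may exclude 0 where the adjusted p does not pass.

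*IAA2* (BraA03g040660.3C), an Aux/IAA repressor, had 32.7 and 24.0 CPM after IAA-Ala and 38.3 and 35.8 CPM after IBA-Ala. The libraries of *IAA2* did not overlap, yet its log2 difference of 0.39 had an interval from −0.08 to 0.85. *IAA29* (BraA03g057220.3C) had 24.2 and 12.8 CPM after IAA-Ala and 10.2 and 21.2 CPM after IBA-Ala, so that each treatment had 1 high and 1 low library. The interval of its log2 difference ran from −1.18 to 0.70. Both repressor genes lay above the control, at 5.56 and 3.51 CPM for *IAA2* and 0.655 and 0.626 CPM for *IAA29*, in all 4 libraries. *EIR1* (BraA03g012590.3C), the auxin efflux carrier PIN2 of the *Arabidopsis* root, was at 18.1 and 18.3 CPM after IAA-Ala and at 24.2 and 19.0 CPM after IBA-Ala. The IAA-Ala replicates of *EIR1* were nearly equal, and the interval of the log2 difference ran from −0.22 to 0.72.

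**Figure D2:**
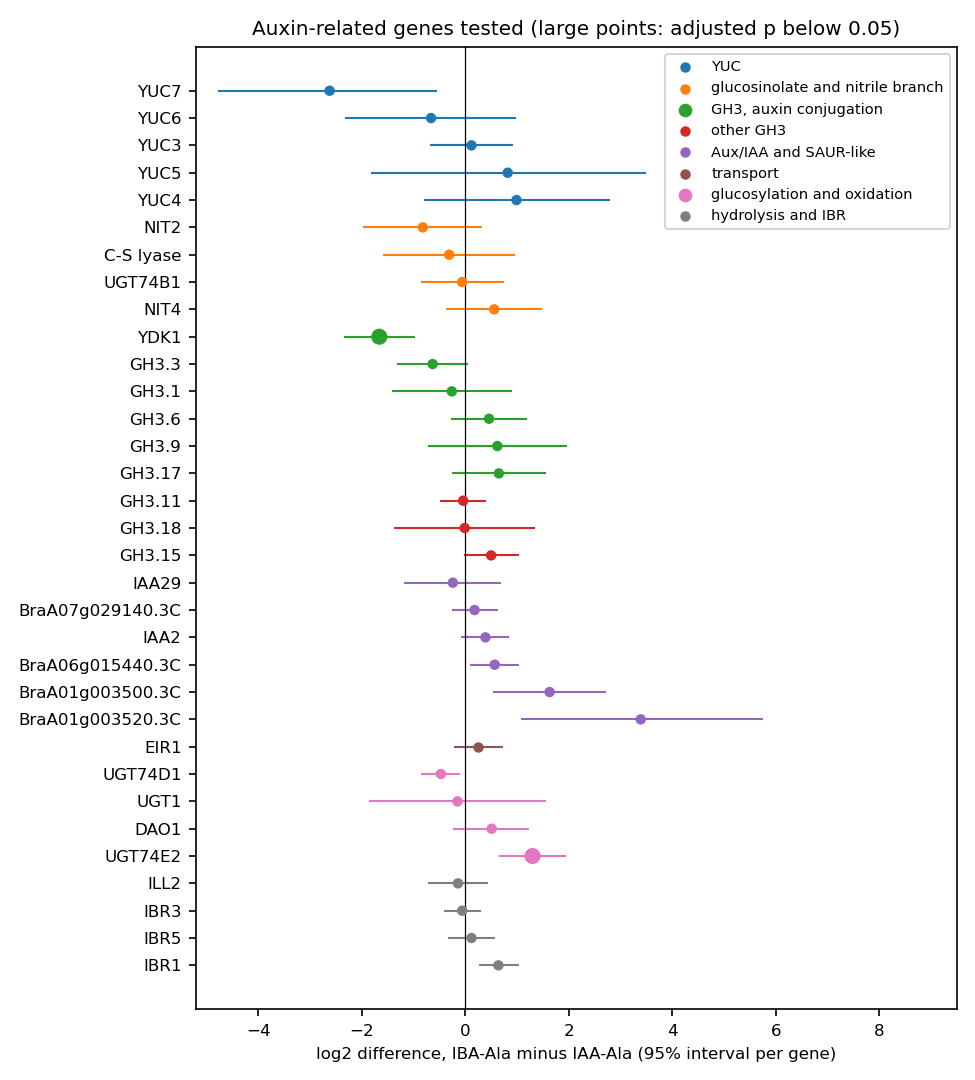
Log2 difference (IBA-Ala minus IAA-Ala) of the 33 auxin-related genes tested, grouped by role, with the 95% interval of each gene as a line. The 2 large points are *YDK1* at −1.66 and *UGT74E2* at 1.30, which passed the test, and the intervals of 25 genes include 0.

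*YUC* genes encode the flavin monooxygenases that form IAA from indole-3-pyruvic acid. Of 10 *YUC* genes, 5 were tested and 0 passed. *YUC3* (BraA10g003150.3C) had overlapping libraries under both conjugates, with 7.96 and 4.94 CPM after IAA-Ala and 8.46 and 5.52 CPM after IBA-Ala, against 1.80 and 1.19 CPM in the control. Its log2 difference of 0.12 had an interval from −0.69 to 0.93. *YUC7* (BraA05g011570.3C) had 46 and 15 counts after IAA-Ala and 2 and 8 counts after IBA-Ala, with 16 and 20 counts in the control. Both IAA-Ala libraries of *YUC7* lay above both IBA-Ala libraries, and IAA-Ala replicate 1 was the highest. The log2 difference was −2.62, with a standard error of 0.91, an unadjusted p of 0.0205 and an adjusted p of 0.113. With single libraries left out, the log2 difference of *YUC7* lay between −3.91 (without IBA-Ala replicate 2) and −1.60 (without IAA-Ala replicate 1), and the adjusted p between 0.0772 and 0.452. *YUC4*, *YUC5* and *YUC6* had between 0 and 24 counts in a library, and the intervals of their log2 differences span more than 3 units and include 0.

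Under the nitrile and glucosinolate branch of auxin synthesis 4 genes were grouped, of which 0 passed. Whether *NIT4* acts in this branch was not examined. *NIT2*, a nitrilase that forms IAA from indole-3-acetonitrile, had 39 and 40 counts after IAA-Ala and 16 and 30 counts after IBA-Ala. Its libraries did not overlap, and its log2 difference of −0.82 had an interval from −1.97 to 0.33. *NIT4* had 4.71 and 2.63 CPM after IAA-Ala and 4.28 and 6.52 CPM after IBA-Ala. *C-S lyase* had 1.52 and 4.14 CPM after IAA-Ala and 2.78 and 1.75 CPM after IBA-Ala, all below the control at 7.85 and 8.33 CPM. *UGT74B1*, a glucosyltransferase of glucosinolate synthesis, had 51.3 and 36.1 CPM after IAA-Ala and 26.9 and 57.0 CPM after IBA-Ala. In *UGT74B1* and *C-S lyase* the replicates of one treatment enclosed those of the other, and the direction of their differences changed with the library left out.

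Among the genes of glucosylation and oxidation besides *UGT74E2*, *UGT74D1* differed least between replicates. *UGT74D1* (BraA04g022840.3C), which glucosylates oxidized IAA in *Arabidopsis*, had 121 and 124 CPM after IAA-Ala and 80.8 and 95.3 CPM after IBA-Ala. The IAA-Ala libraries were at the level of the control (117 and 133 CPM), and both IBA-Ala libraries lay below. Its log2 difference was −0.47, with an interval from −0.85 to −0.10 and an adjusted p of 0.112. *DAO1*, the dioxygenase that oxidizes IAA and its amino acid conjugates, had 203 and 154 counts after IAA-Ala and 195 and 326 counts after IBA-Ala, where IBA-Ala replicate 2 stood above the rest. *UGT1* had 151 and 25 counts after IAA-Ala and 49 and 114 counts after IBA-Ala. The spread of *UGT1* within each treatment exceeded the difference between them, and its interval ran from −1.86 to 1.56.

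*IBR1* (BraA09g026060.3C) acts in the shortening of IBA to IAA in *Arabidopsis*. It had 63.4 and 76.1 CPM after IAA-Ala and 110 and 108 CPM after IBA-Ala, with 99.8 and 78.0 CPM in the control. Both IBA-Ala libraries lay above the other libraries given, and both IAA-Ala libraries below. The log2 difference of 0.64 had a standard error of 0.16 and an interval from 0.26 to 1.03, and its adjusted p of 0.0577 just missed the threshold. The adjusted p of *IBR1* was 0.0284 with DESeq2. It was 0.0424 with the depth scaled by library totals alone, a setting added after seeing the data. *IBR1* passed in 3 of 9 alternatives that kept all 4 libraries, with an adjusted p between 0.0135 and 0.143. The lowest value came from the fit with the replicate number as a block, and the replicate numbers are not known to pair the samples. With each library left out, the log2 difference of *IBR1* lay between 0.52 and 0.78.

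*IBR3*, a further enzyme of the same step, had 95.4 and 88.7 CPM after IAA-Ala and 85.0 and 91.5 CPM after IBA-Ala. Here the libraries overlapped, and the interval of the log2 difference ran only from −0.42 to 0.30. *IBR5*, a phosphatase of the auxin response, had an interval from −0.34 to 0.58. *ILL2* (BraA03g012870.3C), a conjugate hydrolase, had 7.64 and 8.43 CPM after IAA-Ala and 7.43 and 7.16 CPM after IBA-Ala. For *ILL2* the libraries did not overlap but were close, with a log2 difference of −0.14 and an interval from −0.71 to 0.44.

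**Figure D3:**
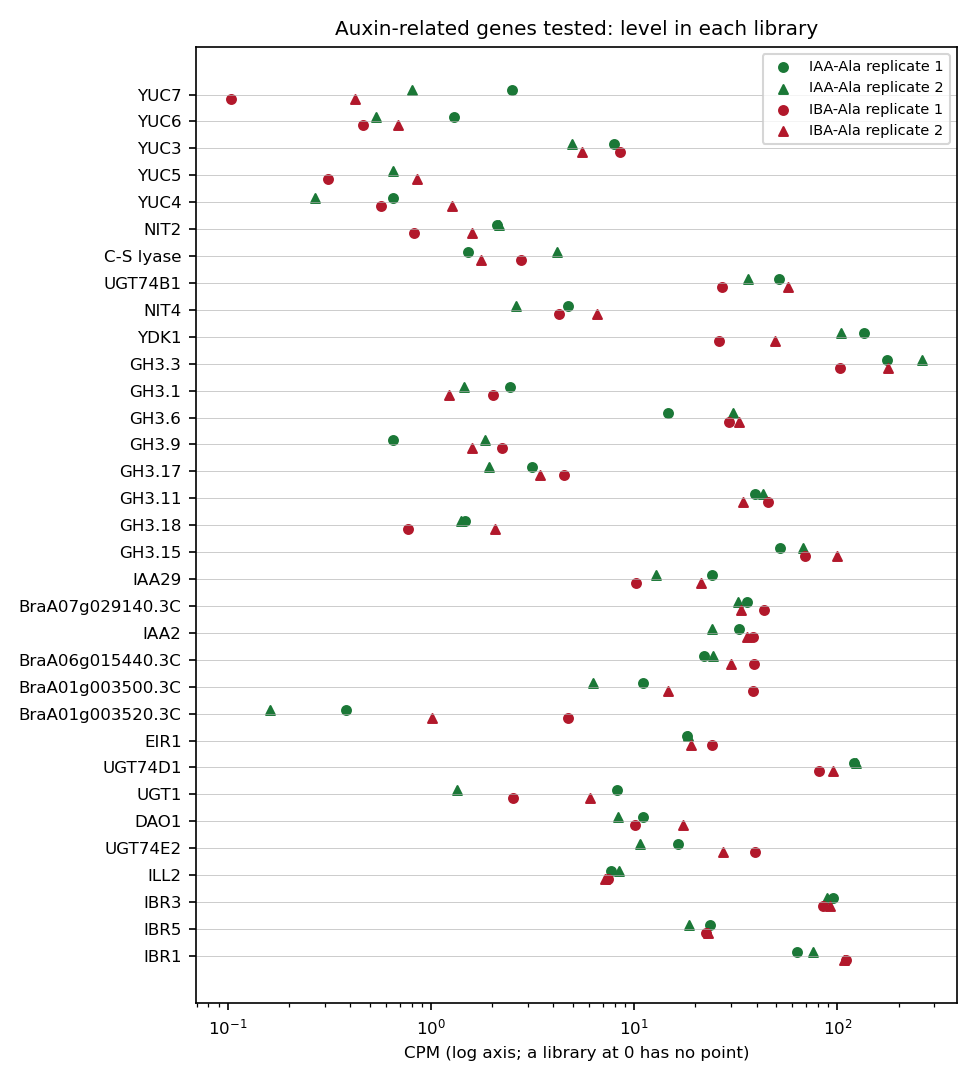
Level in CPM (log axis) of the 33 auxin-related genes tested in each of the 4 libraries, with the 2 treatments in color and the replicates as circles and triangles. The libraries of the treatments do not overlap for 14 of the 33 genes.

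Over all 26952 genes tested, 874 were higher after IBA-Ala (3.24%) and 974 were higher after IAA-Ala (3.61%) at an adjusted p below 0.05. At the study's threshold of 0.01 there were 0 genes (0%), with 7342 genes at an unadjusted p below 0.05 (27.2%), and the smallest adjusted p was 0.0258. DESeq2 called 3112 of 22481 genes at 0.05 (13.8%) and 1786 of 20472 at 0.01 (8.72%). The count in edgeR rested on single libraries and on the samples in the fit. It was 0 without IAA-Ala replicate 1, 0 without IBA-Ala replicate 1, 293 without IAA-Ala replicate 2 and 1156 without IBA-Ala replicate 2, and it was 0 when all 8 libraries entered one fit, with 5451, 4152, 6614, 6541 and 6327 genes at an unadjusted p below 0.05. With the depth scaled by library totals alone, 1259 genes were higher after IBA-Ala and 756 after IAA-Ala, which moved the share of calls towards IBA-Ala from 47.3% to 62.5% and the median log2 difference of all genes from 0.02 to 0.12.

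**Figure D4:**
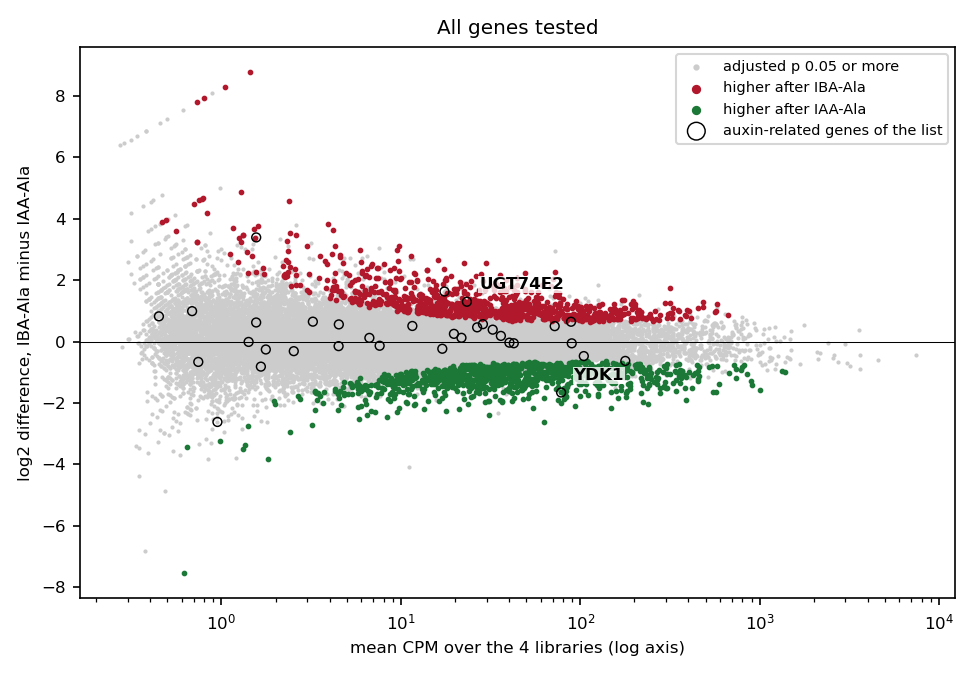
Log2 difference (IBA-Ala minus IAA-Ala) against the mean CPM over the 4 libraries (log axis) for the 26952 genes tested, with the 874 genes higher after IBA-Ala, the 974 higher after IAA-Ala and the 33 auxin-related genes marked. *YDK1* and *UGT74E2* lie among the genes that passed, and the other circles lie among those that did not.

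The libraries of the treatments did not overlap for 58% of all genes tested, with both IBA-Ala libraries higher for 29.3% and both IAA-Ala libraries higher for 28.7%. As a distance between libraries, the root mean square of the log2 CPM differences averaged 0.816 between an IAA-Ala and an IBA-Ala library, and the 4 pairs lay between 0.689 and 0.905. It was 0.655 between the IAA-Ala replicates and 0.567 between the IBA-Ala replicates. Over the 13951 genes above 10 CPM, where counting error is smaller, it averaged 0.626 between treatments and was 0.374 and 0.384 within them. On the first principal component of the 4 libraries, which held 59.0% of the variance, IAA-Ala had scores of −66.7 and −46.6 and IBA-Ala of 74.3 and 39.1. IBA-Ala replicate 1 thus lay farthest from the IAA-Ala libraries.

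The genes higher after IBA-Ala and those higher after IAA-Ala differed in level and in the size of the difference. Among the genes that passed, at least 4-fold differences were found for 111 genes higher after IBA-Ala and 37 higher after IAA-Ala, and at least 8-fold differences for 32 and 6 genes. Over all genes tested, passed or not, these numbers were 350 and 125 at 4-fold and 86 and 22 at 8-fold, also with more genes towards IBA-Ala. The median log2 difference of the genes that passed was nevertheless similar in size, 1.14 for those higher after IBA-Ala and −1.12 for those higher after IAA-Ala. Among the 6738 genes with the lowest levels, up to 3.21 CPM, 55 were higher after IBA-Ala and 13 after IAA-Ala. Among the 6738 genes with the highest levels, above 30.8 CPM, 400 were higher after IBA-Ala and 581 after IAA-Ala. The share of genes called in either direction rose from 1.01% at the lowest to 14.6% at the highest levels, while the median standard error fell from 0.567 to 0.176.

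**Figure D5:**
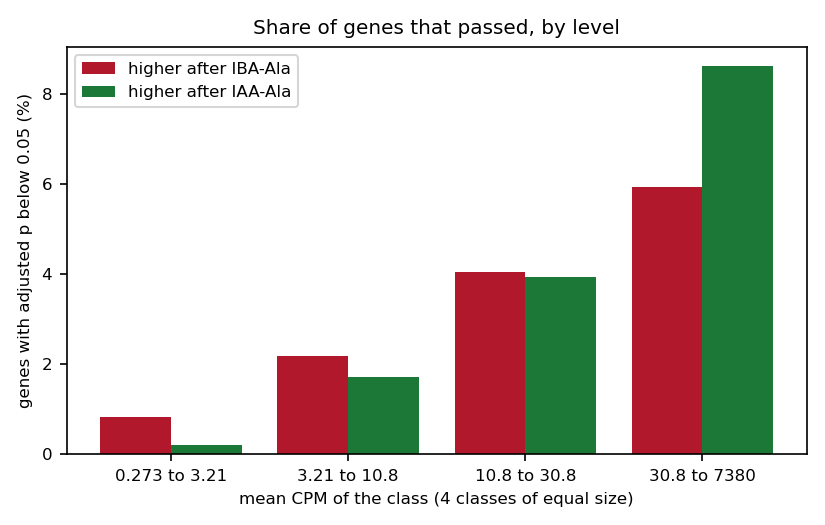
Share of genes with an adjusted p below 0.05 (percent, axis from 0) in 4 classes of 6738 genes by mean CPM, higher after IBA-Ala or after IAA-Ala. In the lowest class 0.816% were higher after IBA-Ala and 0.193% after IAA-Ala, and in the highest class 5.94% and 8.62%.

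Of the 46250 genes listed, 14 had 0 counts in both IAA-Ala replicates and at least 10 counts in each IBA-Ala replicate, and 2 had the reverse pattern. Fewer genes had a count after IAA-Ala (30119 and 31283) than after IBA-Ala (31724 and 32155). The part of this in the 14 and 2 genes was not tested. The largest fitted differences among the genes that passed belonged to genes of low level. The files give these genes by identifier only, and 0 identifiers were matched in the reference table, so they carry no name. BraA05g024550.3C had 0 and 0 counts after IAA-Ala and 37 and 74 counts after IBA-Ala, at least 18.02-fold higher against a floor of 3 counts per library, with an adjusted p of 0.0317. BraA03g052490.3C had 0 and 0 counts after IAA-Ala and 32 and 48 after IBA-Ala, at least 12.97-fold higher, with an adjusted p of 0.0318. In the control these genes had 39 and 17, and 16 and 1 counts, so the IAA-Ala libraries of BraA05g024550.3C lay below both other groups, whereas control replicate 2 of BraA03g052490.3C was under the floor of 3 counts like the IAA-Ala libraries. In the other direction, BraA09g027120.3C had 19 and 27 counts after IAA-Ala and 0 and 0 after IBA-Ala, at least 7.90-fold higher after IAA-Ala, with an adjusted p of 0.0440. BraA03g042710.3C had 75 and 51 counts after IAA-Ala and 3 and 6 after IBA-Ala, with a log2 difference of −3.81, a standard error of 0.63 and an adjusted p of 0.0266. The control had 17 and 12 counts of BraA09g027120.3C and 63 and 101 counts of BraA03g042710.3C, so for both the IBA-Ala libraries lay below the control. These 4 genes did not pass when any 1 library was left out or when all 8 libraries entered one fit, BraA03g042710.3C alone passed with no filter on low counts (adjusted p of 0.0485), and DESeq2 gave them no adjusted p.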

How the data were processed

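Raw counts per gene were deposited for each library. Per the paper's methods and the processing notes, the authors removed 9 bases from the start of each read and aligned the rest to the Chiifu V3.0 genome with STAR 2.7.1a. Counting was by strand with HTSeq 1.99.2, without normalization. Reads outside genes or aligned at several places belong to no gene's count, so near-identical copies of a gene may be undercounted. The tables named as normalized counts were not used.

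The 4 libraries were fitted with edgeR 4.0.16 (R 4.3.3) after its filter on low counts (minimum count 10, minimum total 15) and TMM scaling, by the quasi-likelihood test with Benjamini-Hochberg adjustment. Standard errors were derived from the F statistic, and intervals cover 95%. CPM levels use TMM factors over all 8 libraries and differences those over the 4 compared, and fold changes a prior count of 0.125. CPM are not per length, so levels were compared only within a gene. DESeq2 1.42.0 was an alternative. The fits were also run on simulated data in which 200 genes were changed, which checks the code and not the calls above.

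The genes, the threshold of 0.05 and the lists were chosen with earlier results of these data known. In particular it was known that no gene passes at 0.01. Genes outside the list are the 2 with the largest log2 fold change in each direction among those that passed, without overlap and with at least 10 counts in each library of the higher treatment. The labels and the paper call the replicates biological and do not say whether they were grown on separate plates. The p-values set the difference between treatments against the spread between these libraries, which was estimated with information shared across genes. Replicates differed by more than sampling noise, with a chi-square per gene of 19.4 for IAA-Ala and 18.9 for IBA-Ala. Tissue markers were not checked, since the identifiers carry no names, and positions and sequences are not given.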

Additional observations from a re-analysis of the deposited data

How the results depend on the processing

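The numbers of genes higher after IBA-Ala and after IAA-Ala and of auxin-related genes called, 874, 974 and 2, depended on the settings. They were 1431, 1681 and 4 with DESeq2, 270, 323 and 0 with no filter on low counts, 0, 0 and 0 with all 8 libraries in one fit and at an adjusted p below 0.01, and 569, 635 and 2 with a log2 fold change beyond 1 in size as a further condition. When single libraries were left out, they lay between 0 and 621, between 0 and 535, and between 0 and 4. A treatment left with 1 library was assumed to vary like the other treatment. The last settings use a stricter rule or fewer libraries, and for the others the cause was not tested. They stayed within 1.5 times with RLE normalization, with at least 10 counts in every library, with the edgeR 3 form of the test, with counts thinned to the smallest library and with library totals without TMM factors, the last added after seeing the data. Of the 1848 genes called, DESeq2 called 97.9% and the fit with no filter 32.1%. The mean distance between treatments fell from 0.816 to 0.626 over genes above 10 CPM.

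With the replicate block the numbers were 2395, 2504 and 9. The replicate numbers are not known to pair the samples. The differences between replicate 1 and replicate 2 had a correlation over genes of 0.139 between the treatments, with 2 pairs only.

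Of the named genes, 13 not called changed direction under an alternative. With library totals without TMM factors the log2 difference was 0.04 for *UGT74B1*, 0.06 for *GH3.11*, 0.08 for *GH3.18* and 0.04 for *IBR3*, and with thinned counts 0.02 for *GH3.18*. When single libraries were left out, its range was between −1.16 and 0.10 for *YUC6*, −0.16 and 6.46 for *YUC5*, −0.21 and 0.50 for *YUC3*, −0.86 and 0.58 for *C-S lyase*, −0.69 and 0.40 for *UGT74B1*, −0.65 and 0.16 for *GH3.1*, −0.24 and 0.16 for *GH3.11*, −0.88 and 0.55 for *GH3.18*, −0.85 and 0.29 for *IAA29*, 0.00 and 0.36 for BraA07g029140.3C, −0.93 and 1.67 for *UGT1*, −0.11 and 0.01 for *IBR3*, and −0.04 and 0.30 for *IBR5*. At 2 libraries per treatment, genes of few counts allowed only wide intervals.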

Other observations

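Within each treatment, the auxin response genes did not all have the same order between the replicates. After IBA-Ala, *YDK1* (26.2 and 49.3 CPM), *GH3.3* (103 and 178 CPM) and *IAA29* (10.2 and 21.2 CPM) were lower in replicate 1 than in replicate 2. All 4 *SAUR*-like genes had the opposite order, from 38.5 and 14.7 CPM for BraA01g003500.3C to 43.6 and 33.6 CPM for BraA07g029140.3C. *UGT74E2* (39.4 and 27.3 CPM) and *IAA2* (38.3 and 35.8 CPM) followed them. After IAA-Ala, most of these genes were higher in replicate 1. They were *YDK1* (135 and 104 CPM), *IAA29* (24.2 and 12.8 CPM), *IAA2* (32.7 and 24.0 CPM), *UGT74E2* (16.5 and 10.7 CPM) and most *SAUR*-like genes. Only *GH3.3* (175 and 262 CPM) and the *SAUR*-like gene BraA06g015440.3C (22.1 and 24.4 CPM) had the opposite order. These orders were noticed after the values had been seen and were not tested.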
